A study of Mus musculus with 3 samples.

Results

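Semaphorins, plexins and neuropilins are guidance genes: 20 semaphorin ligand genes, 9 plexin receptor genes and 2 neuropilin co-receptor genes were measured, 31 of the 22180 genes on the arrays. They were taken by symbol from probe sets that carry 1 gene symbol, and the probe set with the highest mean stood for a gene. The same symbol rule also took in Plxna4os1, an RNA named for the strand opposite Plxna4, which is no plexin and is given apart. All 3 arrays belong to 1 group. Each held biotin-labelled total RNA of neurospheres, which are floating colonies of neural precursors, from the ventricular-subventricular zone (V-SVZ) beside the lateral ventricles of wild-type (WT) CD1 mice at postnatal day 8. Cells were plated at 10 cells per microlitre and grown for 7 days in medium that held EGF at 20 ng/ml and FGF at 10 ng/ml. Pups were cultured apart according to the growth protocol, but the sources used here do not say whether an array stands for 1 pup, so the spread between arrays may be technical.

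Semaphorins are secreted or membrane-bound proteins that share a sema domain and steer axons and migrating cells. Plexins are their signalling receptors, whose cytoplasmic part acts on small GTPases. Neuropilins bind most secreted class 3 semaphorins and hand the signal to A-type plexins, since they have no signalling enzyme of their own. In the developing forebrain, Sema3A and Sema3F repel neuropilin-bearing interneurons, and plexin-B2 acts in neuroblasts that leave the V-SVZ.

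The arrays hold no second group, so detection was judged within each array. Olfactory and vomeronasal receptor genes, which belong to the nose, gave 1407 probe sets, and their 95th percentile served as reference level: 5.63, 5.53 and 5.71 log2 units on arrays 1, 2 and 3. A gene was called when limma's one-sided moderated test put its margin (log2 signal minus that level) above 0 with p, adjusted by Benjamini-Hochberg across the 22180 genes, under 0.05. Because the fit pooled the spread over all genes of like signal, a call says that the signal exceeded the level and no more. A stricter description counted genes above the 99th percentile of the same probe sets, 6.42, 6.09 and 6.68, on every array. Probe sets bind with different strength, so signals of different genes are not ranked against each other. The same test called 59.1% of all genes, with a median margin of 0.76. Without the olfactory and vomeronasal receptor genes, which set the level, it called 62.8%, with a median margin of 1.05. Among cell type markers, all 5 measured stem and radial glia markers were called, Sox2 with 11.44, 11.43 and 11.30 among them, as were all 4 oligodendrocyte precursor markers, 3 of 4 astrocyte markers, 4 of 5 neuroblast markers and all 5 mural and fibroblast markers. Of markers of other cells, 1 of 6 endothelial, 2 of 6 microglial and 1 of 4 ependymal genes were called. The calls of Kdr, Cx3cr1, P2ry12, Col1a1 and Col1a2 among these markers ended with the 99th percentile as the level. With the probe set of lowest mean for each gene, those of Rgs5 (margin -0.79) and Col1a2 (-2.30) ended. That of Col1a2 also ended with the median over its probe sets (-0.93).

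Of the 31 genes, 27 were called above the reference level, against 59.1% of all genes. Their median margin was 2.21 log2 units, against 0.76 over all genes and 1.05 without the olfactory and vomeronasal receptor genes. By family, 16 of 20 semaphorin genes, 9 of 9 plexin genes and 2 of 2 neuropilin genes were called. The 4 genes not called were Sema3c, Sema3e, Sema3g and Sema4f, all of them ligands. Above the 99th percentile on all 3 arrays were 23 of the 31 genes, against 46.6% of all genes: 12 semaphorin genes, 9 plexin genes and both neuropilin genes. Apart from Sema3b, the adjusted p of each called member was at most 5.59e-11 by limma. Such values rest on the pooled spread, to which the 39.4% of genes with identical values on each array contribute, and may be too small.

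**Figure D1:**
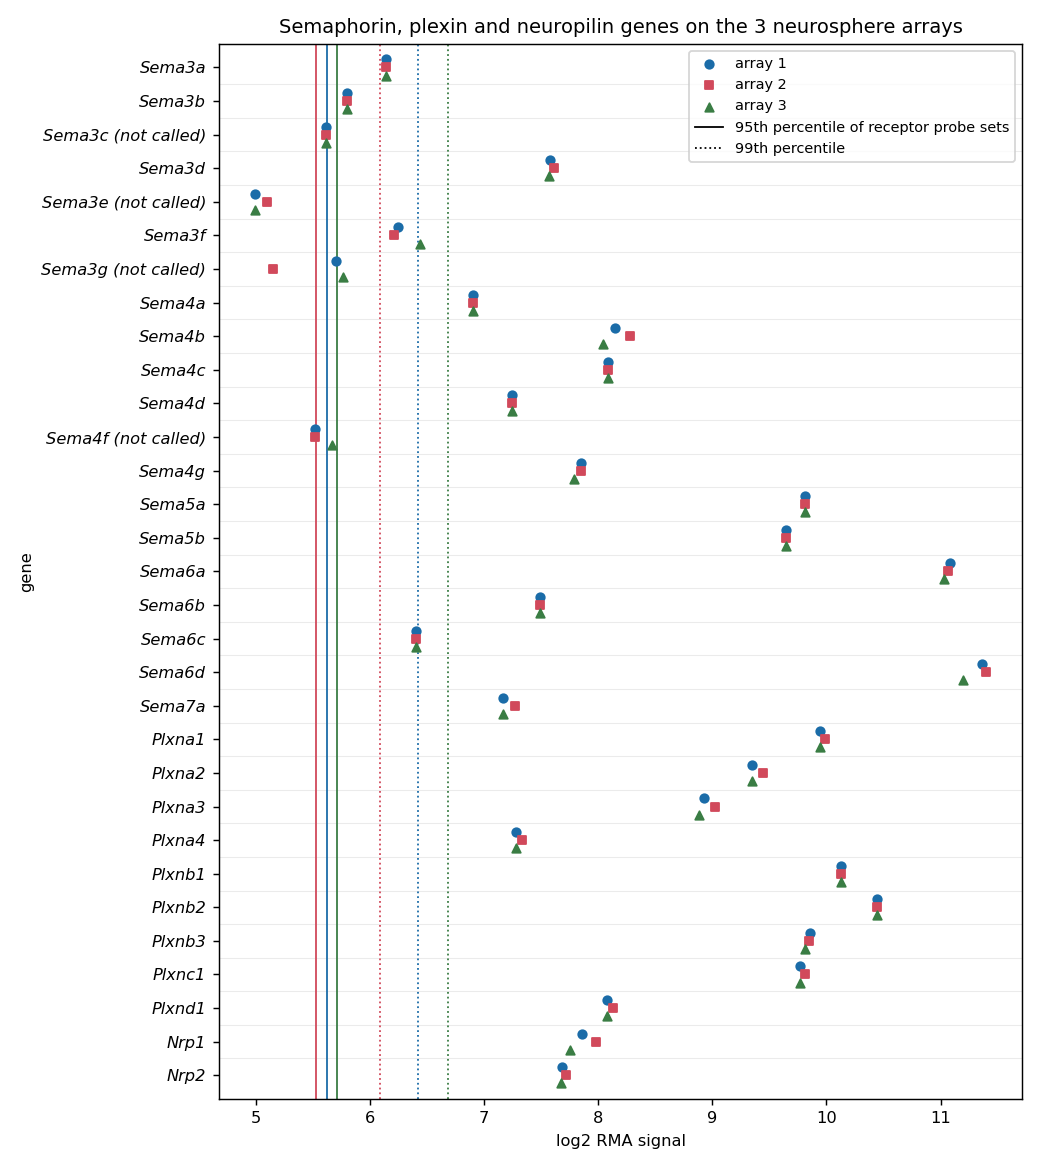
Log2 RMA signal (x axis) of the 31 semaphorin, plexin and neuropilin genes (rows) on arrays 1, 2 and 3, with the 95th (solid) and 99th (dotted) percentile of the olfactory and vomeronasal receptor probe sets of each array in its colour. All 11 plexin and neuropilin genes lie to the right of every line, while 4 semaphorin genes were not called.

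Neuropilins, the co-receptors of class 3 semaphorins, were both detected. Nrp1 had log2 signals of 7.86, 7.98 and 7.75 on arrays 1, 2 and 3, a margin of 2.24 ± 0.20 (SD, n = 3) over the reference level. Nrp2 had 7.68, 7.72 and 7.68, a margin of 2.07 ± 0.11 (SD, n = 3). On no array were more than 2 of the 1407 receptor probe sets as high as either gene. Nrp1 differed by 0.23 between its highest and lowest array, where the median range of genes of like signal was 0.061, and Nrp2 by 0.042.

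A-type plexins, the partners that neuropilins signal through, were called without exception, against 59.1% of all genes. Plxna1 had 9.94, 9.98 and 9.94, and Plxna2 had 9.35, 9.44 and 9.35. Plxna3 had 8.92, 9.03 and 8.88, and Plxna4 had 7.28, 7.33 and 7.28. In each of these 4 genes array 2 was the highest, and all 12 values lay above the 99th percentile of their array. Plxna4os1, which is listed with the opposite strand of Plxna4, had 5.50, 5.17 and 5.50, lay under the reference level on every array and was not called.

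Among B-type plexins, plexin-B1 and plexin-B2 are paired below with class 4 semaphorins and plexin-B3 with Sema5A. Through their tail, B-type plexins bind the guanine nucleotide exchange factors encoded by Arhgef11 and Arhgef12. Plxnb1 had 10.13 on each array, Plxnb2 had 10.45 on each array, and Plxnb3 had 9.86, 9.84 and 9.81. Their margins were 4.51, 4.82 and 4.22. Only 1 of the 1407 receptor probe sets, the brightest of them, was as high as any of the 3 genes. Plxnb1 and Plxna1 each had another probe set with a far lower signal, described with the flagged results.

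The remaining plexins are the receptor of Sema7A, plexin-C1, and that of Sema3E, plexin-D1, which is known from blood vessels. Plxnc1 had 9.76, 9.82 and 9.76, a margin of 4.16 ± 0.12 (SD, n = 3). Plxnd1 had 8.08, 8.13 and 8.08, a margin of 2.47 ± 0.12 (SD, n = 3). Array 2 was again the highest for both. Beside Plxnd1 stand the endothelial markers, of which Kdr (6.80, 6.91 and 6.80) was called, and Pecam1, Cdh5, Cldn5, Tek and Flt1 had margins from -0.63 to -0.15 and were not. What endothelial cells contribute to the Plxnd1 signal was not tested.

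**Figure D2:**
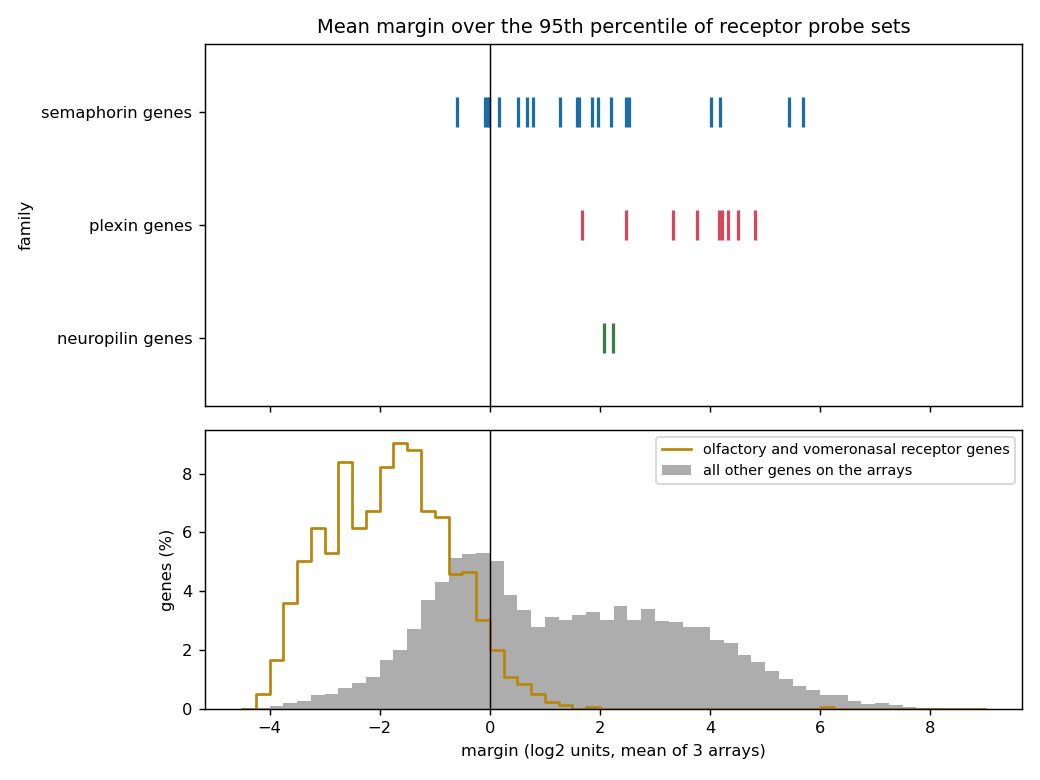
Upper panel: the mean margin over the reference level (x axis, log2 units, mean of 3 arrays) of each semaphorin, plexin and neuropilin gene as a tick. Lower panel: the share of genes (%) per bin of 0.25 log2 units for all other genes (grey bars; the 31 genes included) and for the olfactory and vomeronasal receptor genes (line). Every plexin tick lies at 1.68 or above, whereas semaphorin ticks run from -0.59 to 5.69.

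Class 3 semaphorins are the secreted ligands of neuropilins, and here 4 of 7 genes (57.1%) were called, a share near the 59.1% of all genes, with a median margin of 0.17, against 0.76 over all genes. A single member, Sema3d, exceeded the 99th percentile on all 3 arrays, at 7.58, 7.62 and 7.57. Sema3a, the classical growth cone collapsing factor, had 6.14 on each array, a margin of 0.52 ± 0.090 (SD, n = 3). For this and every other gene with the same signal on each array, the SD comes wholly from the reference level. Its signal was matched or exceeded by 29, 14 and 39 of the 1407 receptor probe sets on arrays 1, 2 and 3. Sema3f, which acts through Nrp2, had 6.24, 6.21 and 6.44 and was matched by 25, 11 and 21 of those probe sets. The calls of Sema3a and Sema3f therefore held against the 95th percentile but not against the 99th, where their margins were -0.26 and -0.099.

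The other class 3 signals lay close to the level or under it. Sema3b had 5.80 on each array, a margin of 0.17 ± 0.090 (SD, n = 3; limma adjusted p = 0.0207), and its call ended without replicate 1 (limma adjusted p = 0.217) and without replicate 2 (0.110). Sema3c had 5.61 on each array and exceeded the reference level on array 2 only (limma adjusted p = 0.897). Sema3e, which binds plexin-D1 without a neuropilin, had 5.00, 5.10 and 5.00, under the level on every array. Sema3g, a ligand of Nrp2, had 5.70, 5.15 and 5.77, above the level on arrays 1 and 3 and under it on array 2. Signals this close to the level do not show that a transcript was absent.

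The RefSeq annotation (GRCm38.p6) places Sema3d, Sema3a, Sema3e and Sema3c on mouse chromosome 5. No protein-coding gene lies between Sema3d and Sema3a, 3 lie between Sema3a and Sema3e, and 15 between Sema3e and Sema3c. The first pair was called and the second pair was not. Their promoters (RefSeq, 250 bases before to 50 after a transcript start, 300 in all) are printed because these neighbours differ in their calls, although Sema3c lay at the level itself. Those of Plxnb1 and Plxnb3 are printed because both genes were called on promoters of different make-up. Each runs 5′ to 3′ on the strand of the gene, with CpG sites in capitals.
Sema3d, chr5:12382916-12383215, GRCm38.p6, plus strand: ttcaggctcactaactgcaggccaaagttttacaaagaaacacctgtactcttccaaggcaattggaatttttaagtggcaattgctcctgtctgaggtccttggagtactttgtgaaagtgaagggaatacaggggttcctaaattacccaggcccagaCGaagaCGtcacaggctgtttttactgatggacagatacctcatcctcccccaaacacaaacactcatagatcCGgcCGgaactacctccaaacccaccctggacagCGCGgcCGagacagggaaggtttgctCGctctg
Sema3a, chr5:13396534-13396833, GRCm38.p6, plus strand: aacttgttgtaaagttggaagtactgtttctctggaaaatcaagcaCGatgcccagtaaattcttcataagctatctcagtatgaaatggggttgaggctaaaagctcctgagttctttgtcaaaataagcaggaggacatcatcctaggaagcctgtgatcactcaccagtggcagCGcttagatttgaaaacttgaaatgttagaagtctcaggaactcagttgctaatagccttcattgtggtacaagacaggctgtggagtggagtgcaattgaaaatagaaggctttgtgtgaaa
Sema3e, chr5:14025026-14025325, GRCm38.p6, plus strand: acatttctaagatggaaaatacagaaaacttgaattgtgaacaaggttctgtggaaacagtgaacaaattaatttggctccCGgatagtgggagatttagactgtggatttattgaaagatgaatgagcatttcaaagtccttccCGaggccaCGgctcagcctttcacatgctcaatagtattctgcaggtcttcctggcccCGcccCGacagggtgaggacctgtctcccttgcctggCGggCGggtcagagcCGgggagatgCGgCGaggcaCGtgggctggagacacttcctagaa
Sema3c, chr5:17574566-17574865, GRCm38.p6, plus strand: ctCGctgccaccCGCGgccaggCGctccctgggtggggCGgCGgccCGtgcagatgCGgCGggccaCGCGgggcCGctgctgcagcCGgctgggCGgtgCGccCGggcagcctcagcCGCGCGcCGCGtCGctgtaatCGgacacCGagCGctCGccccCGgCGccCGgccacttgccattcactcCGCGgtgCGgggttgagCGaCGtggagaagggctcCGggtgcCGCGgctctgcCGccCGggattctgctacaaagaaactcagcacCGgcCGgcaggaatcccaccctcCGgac
Plxnb1, chr9:109095186-109095485, GRCm38.p6, plus strand: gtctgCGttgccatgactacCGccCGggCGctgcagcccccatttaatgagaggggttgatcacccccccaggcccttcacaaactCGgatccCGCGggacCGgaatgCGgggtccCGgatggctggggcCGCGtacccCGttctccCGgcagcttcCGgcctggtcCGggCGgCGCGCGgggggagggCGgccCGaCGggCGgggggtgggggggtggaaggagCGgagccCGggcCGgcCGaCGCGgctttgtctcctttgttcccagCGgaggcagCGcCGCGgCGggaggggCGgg
Plxnb3, chrX:73756853-73757152, GRCm38.p6, plus strand: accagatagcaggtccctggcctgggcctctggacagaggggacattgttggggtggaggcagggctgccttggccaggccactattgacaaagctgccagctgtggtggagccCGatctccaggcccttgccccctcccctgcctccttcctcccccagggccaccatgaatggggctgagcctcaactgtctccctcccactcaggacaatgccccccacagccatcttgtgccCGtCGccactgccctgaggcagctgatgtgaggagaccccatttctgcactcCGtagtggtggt

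The 6 printed promoters, of which those of Plxnb1 and Plxnb3 were picked for their different make-up, cover a wide range of CpG counts. Sema3c, not called, had 42 CpG sites, a number that 3.03% of the 32851 promoters in the table reached, and Sema3e, not called, had 11. Sema3d, called, had 8 and Sema3a, called, had 2, a number that 85.9% of all promoters reached. Plxnb1 had 36 and Plxnb3 had 4. Promoters were found for 26 of the 31 genes, 37 starts in all. Over these the median was 15 CpG sites, against 7 over all promoters. It was 18 over the 33 promoters of 22 called genes, some of which count with several starts. Over the 4 promoters of the 4 genes not called it was 9.5, and these had 7, 8, 11 and 42. The GC box GGGCGG, read on both strands and overlapping CpG by its letters, occurred in 27 of 37 promoters (73.0%), against 35.7% of all promoters. TATAAA, read on both strands, occurred in 0 of 37, against 13.6%. CAGCTG, a palindromic E-box, occurred in 6 of 37 (16.2%), against 16.3%. A motif match is a description of letters, and other transcript starts than those in the table were not searched. Sema6a, Sema3b, Sema3f, Plxna1 and Plxna4 had no entry.

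Class 4 semaphorins are membrane proteins with B-type plexins as main receptors, and 5 of 6 genes (83.3%) were called, against 59.1% of all genes. Their median margin was 1.92, against 0.76 over all genes. Sema4b had 8.14, 8.28 and 8.05, and Sema4c, a ligand of plexin-B2, had 8.09 on each array. Sema4g, another plexin-B2 ligand, had 7.85, 7.85 and 7.79. Sema4d, known from immune cells and from oligodendrocytes, had 7.25 on each array, and Sema4a had 6.91 on each array. All 15 of these values lay above the 99th percentile of their array. Sema4f had 5.52, 5.52 and 5.67, under the reference level on every array, and was not called. Beside Sema4d and Sema4a stand the microglial markers, of which Cx3cr1 (6.64, 6.39 and 6.93) and P2ry12 (6.14, 6.14 and 5.86) were called and Csf1r, Aif1, Tmem119 and Itgam were not. The calls of Cx3cr1 and P2ry12 ended with the 99th percentile as the level. All 4 oligodendrocyte precursor markers were called, with margins from 2.53 to 5.75. The part of microglia or of the oligodendrocyte lineage in these signals was not tested.

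Class 5 semaphorins, membrane proteins with thrombospondin repeats that inhibit neurites of the retina through plexin-A1 and plexin-A3, were both called. Of all genes, 59.1% were called. Sema5a had 9.81 and Sema5b 9.65 on each array. Their margins were 4.19 ± 0.090 and 4.02 ± 0.090 (SD, n = 3), a spread that comes wholly from the reference level, since neither signal differed between arrays. Both exceeded all but 1 of the 1407 receptor probe sets.

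Class 6 semaphorins are membrane proteins that bind A-type plexins directly, without neuropilin, and all 4 genes were called, against 59.1% of all genes. Sema6a had 11.08, 11.06 and 11.03, and Sema6d had 11.36, 11.40 and 11.20. Sema6b had 7.49 on each array. Sema6c had 6.40 on each array, a margin of 0.78 ± 0.090 (SD, n = 3), and was matched or exceeded by 16, 9 and 24 of the receptor probe sets. Against the 99th percentile its margin was 0.0031 and it was not called (limma adjusted p = 0.992), where 44.9% of all genes were. Sema7a, whose product is held to the membrane by a lipid (GPI) anchor, had 7.17, 7.27 and 7.17, a margin of 1.58 ± 0.15 (SD, n = 3).

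Ligands were then matched with receptors over 28 pairs known from the field, covering 18 semaphorin genes and 12 partners, the integrin subunit gene Itgb1 (10.26 on each array) among them as a receptor of Sema7A. In 24 pairs both genes were called, in 4 pairs the receptor alone, and in 0 pairs was the receptor not called. The 0 holds for these 12 partners only. The receptor and co-receptor genes Timd2, Met, Mst1r, Trem2 and Tyrobp, which were not called, were not among them. Cd72, a known partner of Sema4d, was not analysed. Every partner was called and exceeded the 99th percentile on all 3 arrays, so the pair counts only restate which semaphorin genes did so. For Plxna1 and Plxnb1 this holds for the brighter probe set. Their other probe sets lay under the 99th percentile on arrays 1 and 3. Of all genes, 59.1% were called and 46.6% exceeded the 99th percentile on all 3 arrays. The 4 pairs with the receptor alone were Sema3c with Nrp1 and with Nrp2, Sema3e with Plxnd1, and Sema3g with Nrp2. At least 1 complete pair was found in each of the 5 ligand classes, and 15 of 18 semaphorin genes had one. When both genes had to exceed the 99th percentile on all 3 arrays, 19 pairs and 11 semaphorin genes remained, and Sema3d was the only class 3 ligand among them. RNA of whole cultures does not show whether a ligand and its receptor came from the same cell.

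**Figure D3:**
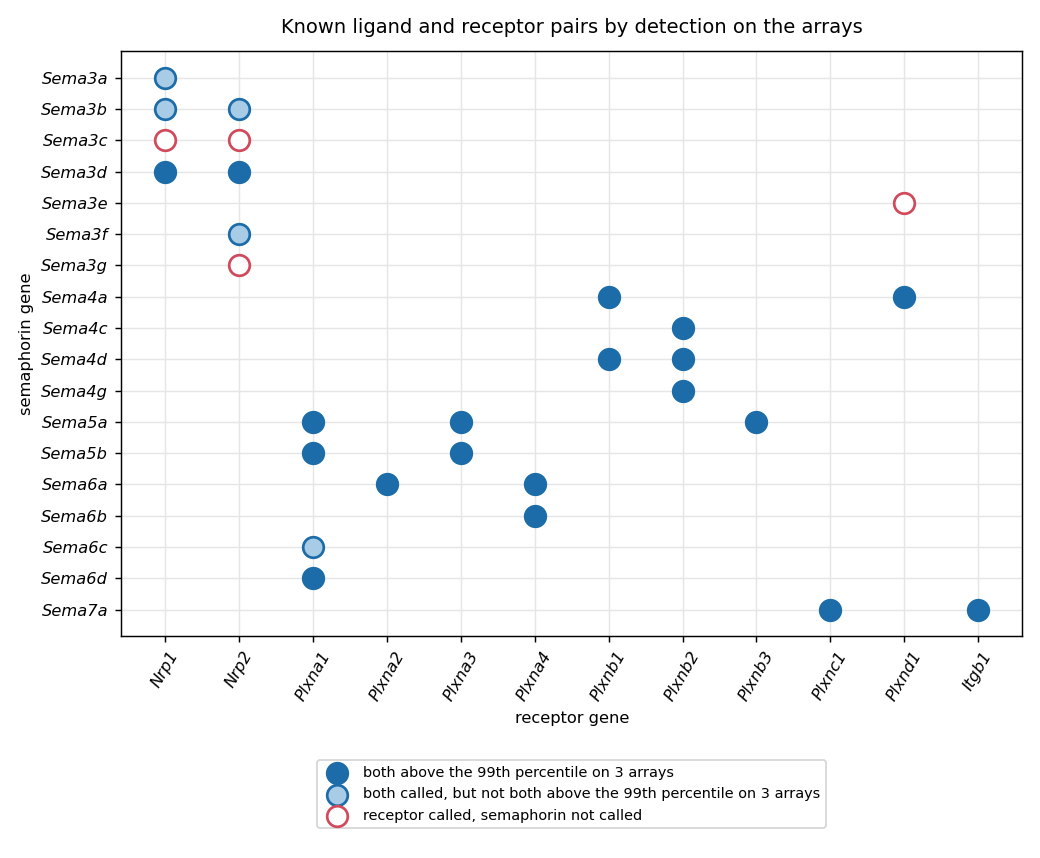
The 28 known pairs of a semaphorin gene (rows) and a receptor gene (columns), 1 circle a pair: dark where both exceeded the 99th percentile of receptor probe sets on all 3 arrays (19 pairs), light where both were called but not all values were that high (5 pairs), open where the receptor was called and the semaphorin was not (4 pairs). Open and light circles are all in the class 3 rows except for Sema6c with Plxna1. Each gene is shown by its probe set of highest mean.

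Genes that act with or behind these receptors were taken from lists of 5 kinds, and each count is set beside the 59.1% of all genes that were called and their median margin of 0.76. Of 20 measured effectors at the plexin tail 19 (95%) were called, with a median margin of 3.68. Arhgef11 (8.21, 8.24 and 8.21) and Arhgef12 (9.71, 9.78 and 9.71), the guanine nucleotide exchange factors of B-type plexins, were among them, as were the Rnd GTPase genes Rnd1 (5.87 on each array), Rnd2 (9.55 on each array) and Rnd3 (9.48, 9.57 and 9.46) and the plexin substrate gene Rras (9.83, 9.87 and 9.80). Rnd1 was close to the level, with a margin of 0.25, and its call ended without replicate 1 (limma adjusted p = 0.0926). The call of Rap1b (margin 5.56) ended with its probe set of lowest mean (margin -0.73). The kinase gene Fes (5.16, 5.11 and 5.24) was not called. All 12 measured genes of the collapse pathway that carries the Sema3A signal to the cytoskeleton were called, with a median margin of 4.43. They include the collapsin response mediator genes Dpysl2 (12.21 on each array), Dpysl3 (11.63 on each array), Dpysl4 (7.70, 7.78 and 7.70), Dpysl5 (7.96 on each array) and Crmp1 (10.50 on each array), and the kinase gene Cdk5 (11.11, 11.14 and 11.09). These genes also act outside semaphorin signalling.

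Co-receptors and other receptors were called in 7 of 12 cases (58.3%), a share near the 59.1% of all genes. Their median margin was 1.04, against 0.76 over all genes and 1.05 without the olfactory and vomeronasal receptor genes. The adhesion genes L1cam (6.41, 6.41 and 6.64), Chl1 (7.97, 8.11 and 7.90) and Nrcam (10.35 on each array), whose products associate with neuropilins, were called, as were Itgb1, Itga1 (7.35 on each array) and the plexin-B partner Erbb2 (7.97 on each array). The other plexin-B partner kinases Met (5.61 on each array) and Mst1r (5.44, 5.44 and 5.60) were not, nor were Timd2 (4.69 on each array), Trem2 (5.07, 4.96 and 5.07) and Tyrobp (5.48 on each array), of which the last pair encodes a complex of myeloid cells that joins plexin-A1. All 5 protease genes that cleave semaphorins or their receptors were called: Furin (8.63 on each array), Pcsk5 (7.10 on each array), Pcsk6 (7.69, 7.71 and 7.67), Adam10 (10.54 on each array) and Adam17 (9.60, 9.72 and 9.60). Of the VEGF family, whose members also bind neuropilins, 4 of 5 genes (80%) were called, against 59.1% of all genes. Vegfa had 9.14, 9.14 and 9.10 and Vegfb had 10.37, 10.37 and 10.43. Vegfc (6.36, 6.25 and 6.36) and Pgf (5.85, 5.86 and 5.85) were nearer the level, and Vegfd (4.64, 4.61 and 4.64) was not called. The call of Pgf ended without replicate 1 (limma adjusted p = 0.117), and those of Rnd1, L1cam, Vegfc and Pgf ended with the 99th percentile as the level.

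Differences between the 3 arrays were mostly small for the 31 genes. The median range was 0.046 log2 units, against 0.036 over all genes. Over the called members it was 0.045, against 0.030 over all called genes. For 12 of the 31 genes the 3 deposited values were identical, as for 39.4% of all genes, so an SD of 0 understates the true spread. Sema3g, with 0.61, was the only member whose range exceeded 0.5, as did 1177 of all genes. Sema6d had a range of 0.20, wider than 99.2% of genes within 0.5 log2 units of its signal, with array 3 the lowest. Array 2 alone held the highest value in 13 of 31 members (41.9%), among them both neuropilins and 6 of 9 plexins, against 24.0% of all genes and 34.3% of all called genes. With 3 arrays of 1 group these are descriptions without a test.

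**Figure D4:**
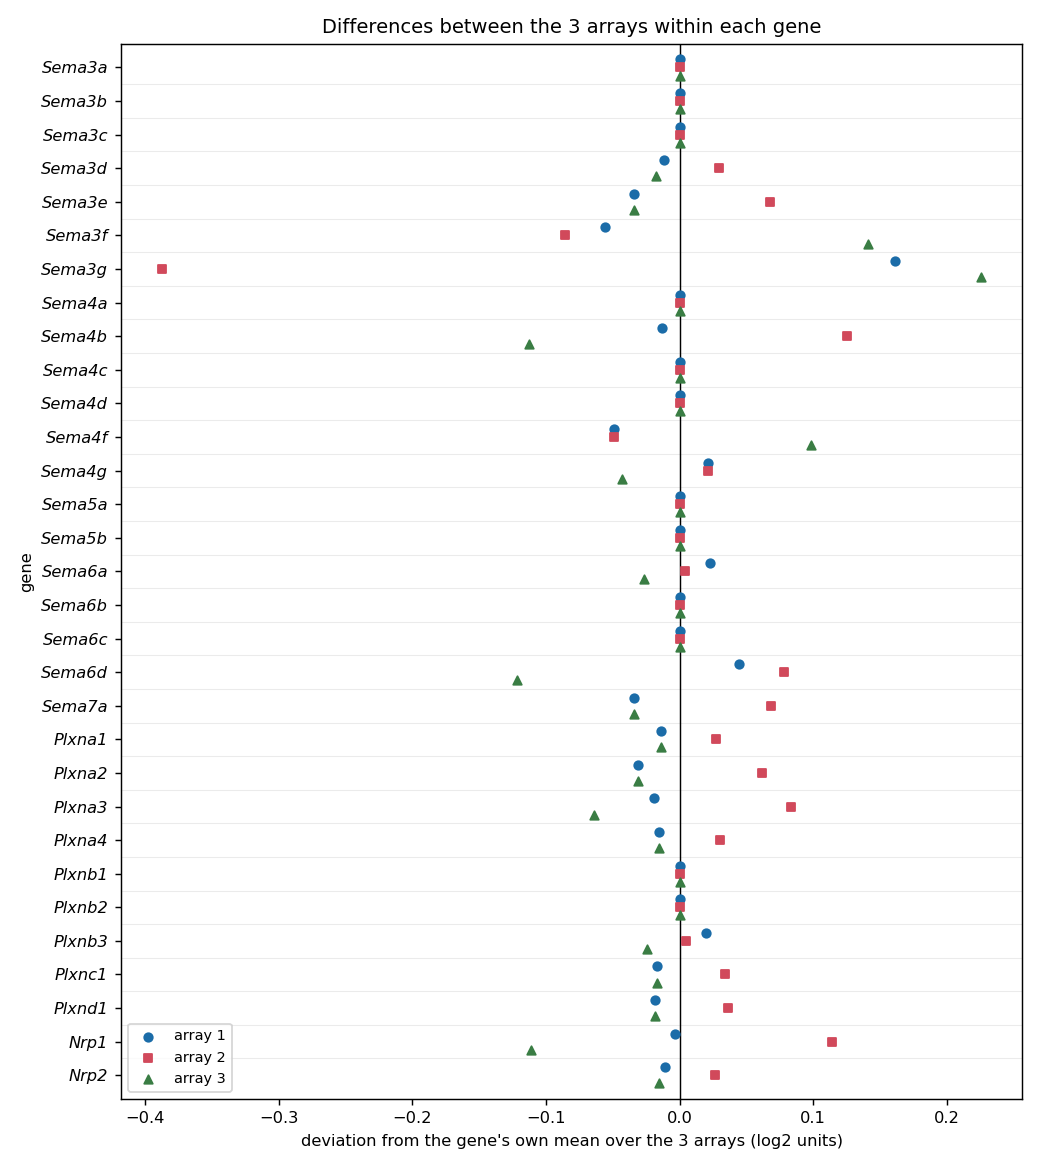
Deviation of each array's log2 signal from the gene's own mean over the 3 arrays (x axis) for the 31 genes (rows). Points of 12 genes coincide at 0, array 2 alone is the highest for 13 genes, and Sema3g spans 0.61 log2 units.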

How the data were processed

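The deposited values are log2 signals of 41345 probe sets on 3 arrays, made by the authors with RMA, per the submitters' processing notes; its version and options are not given in the sources used here. RMA corrects background, normalises between arrays and summarises the probes of a set by median polish, which can give identical values on several arrays. Genes were named from the platform annotation: 23521 probe sets had 1 symbol, 1814 several and 16010 none, leaving 22180 genes, 1082 of them with several probe sets. Detection was tested with limma 3.58.1 in R 4.3.3 (intercept, eBayes with an intensity trend, one-sided); its prior degrees of freedom were infinite, so the spread was pooled. On simulated data with 22180 genes it called 50 of 50 genes placed 0.25 log2 units over the level and 0 of 50 placed at it. The simulated noise was the smoothed spread of the deposited values, identical values included, and so may be too small. For arrays the number of samples, here 3, limits the precision. Alternatives changed the percentile, the reference genes, the level per array, the probe set, the scaling, the model, the minimum margin and the filter, and left out each replicate. All 31 family members are named. Of other lists, up to 6 called and 6 not called are named in the order written, with Rap1b added for its changed call. Members and lists were chosen with earlier results of these data known. Cd72, Rhod, Rap1a, Pak1 and Rock2, which stand in those lists, were not analysed here. Figures were drawn with matplotlib 3.10.9.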

Additional observations from a re-analysis of the deposited data

Results flagged for a closer look

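Plxnb1 and Plxna1 each had a probe set that the comparisons above did not use, because another probe set of the gene was brighter, and both of these carried a signal above the reference level. The second probe set of Plxnb1 had log2 signals of 6.13, 6.13 and 6.05 (mean 6.11), against 10.13 on each array for the one used. The second probe set of Plxna1 had 6.18, 6.21 and 6.21 (mean 6.20), against 9.94, 9.98 and 9.94. Both were called by limma when the probe set with the lowest mean stood for each gene. They lay near the 99th percentile of the receptor probe sets (6.42, 6.09 and 6.68), above it on array 2 and below it on arrays 1 and 3. Groups of 3 arrays are too small for a search for outlying arrays.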

How the results depend on the processing

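No paired analysis was possible because all 3 arrays belong to 1 group. Under 14 alternatives the count of called members lay between 22 and 30, against 27 in the analysis reported, while the share of all genes called lay between 43.5% and 66.7%; that of semaphorin genes lay between 11 and 19, against 16, and all 9 plexin genes, both neuropilin genes and a pair in each of the 5 ligand classes were called under every one. Leaving out each replicate gave 26 to 27 members. Among the 31 genes, outcomes changed for semaphorin genes alone. Against the 99th percentile the margins turned negative for Sema3a (-0.26), Sema3b (-0.60) and Sema3f (-0.099). Against the 95th percentile of 142 probe sets of genes of hair keratin-associated proteins, defensins and bitter taste they did so for Sema3a (-0.29), Sema3b (-0.64), Sema3f (-0.14) and Sema6c (-0.034), and Sema4a kept a margin of 0.47 but not its call (limma adjusted p = 0.0833). With a minimum margin of 0.5, Sema3b fell short by 0.33 (value -0.33) and Sema3a was no longer called. With the 90th percentile, Sema3c (0.35), Sema3g (0.28) and Sema4f (0.31) were called. Leaving out each replicate moved the margin of Sema3c between -0.057 and 0.033 and that of Sema3g between -0.16 and 0.065, with neither called. Among VEGF genes 2 of 5 were called with the 99th percentile (44.9% of all genes) and 2 of 5 with the other reference genes (43.5%). Where an alternative moved the level, the change follows from its construction. Sema3b, Sema3c and Rnd1 had the same signal on each array. Leaving out a replicate therefore changed only the level and the pooled fit for them. For the other genes the cause of a change without a replicate was not tested. The remaining 416 of 434 outcomes for single members kept direction and call.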
